A study of Rattus norvegicus with 20 samples.

Results

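The miR-7 family was described in small RNA from the adBNST, the anterodorsal part of the bed nucleus of the stria terminalis, a forebrain region that takes part in sustained anxiety. The family was taken as the reads named rno-miR-7a-5p, rno-miR-7b, rno-miR-7a-2-3p or rno-miR-7a-1-3p in the deposited read lists, summed by name, which are 4 of the 617 miRNAs with reads. All 4 had reads in all 20 libraries and passed the filter on low counts (at least 10 counts in at least 5 libraries), which 500 miRNAs passed. The rats were Sprague-Dawley males and females, weaned at postnatal day 21 and from then on housed singly (socially isolated, SI) or with same-sex littermates (group housed, GH) for 6 weeks. They were tested on the elevated plus maze at 9 weeks of age and then killed, and the adBNST was punched from the frozen brains. There were 5 rats in each of the groups GH male, SI male, GH female and SI female, and a rat is named here by its group and animal number. The SI rats numbered 17 have 1 sex in their labels and the other in their file names, and their groups follow the labels. The female samples were chosen by RNA integrity and to span a range of estradiol levels.

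A microRNA is cut from a hairpin precursor whose arms each give a short strand, called 5p and 3p. The strand that is kept by an Argonaute protein guides it to messenger RNAs that pair with its seed, which is bases 2 to 8 from the 5′ end. miR-7 is an old and highly conserved miRNA that is known from neurosecretory and endocrine cells, such as those of the hypothalamus, the pituitary and the pancreatic islets. In brain it is bound by Cdr1as, a circular RNA with many miR-7 sites, which is itself cut with the help of miR-671, and alpha-synuclein is among its known targets.

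The mature sequences, from the RefSeq table of the rat assembly GRCr8, are shown because the whole family turns on a few bases. The seed is in capitals.
rno-miR-7a-5p: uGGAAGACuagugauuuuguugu
rno-miR-7b: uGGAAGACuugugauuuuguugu
rno-miR-7a-2-3p: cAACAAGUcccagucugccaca
rno-miR-7a-1-3p: aCAACAAAucacagucugccau
miR-7a-5p and miR-7b share the seed GGAAGAC, which no other of the 693 mature rat miRNAs in the table has. Over their 23 bases they differ at a single position, A10U (miR-7a-5p to miR-7b, counted from the 5′ end), outside the seed. The 3p strands have other seeds. CAACAAA of miR-7a-1-3p also belongs to miR-3065-5p, and AACAAGU was found only in miR-7a-2-3p.

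The hairpins show why miR-7a-5p cannot be traced to a single gene, with the annotated mature strands in capitals.
rno-mir-7a-1: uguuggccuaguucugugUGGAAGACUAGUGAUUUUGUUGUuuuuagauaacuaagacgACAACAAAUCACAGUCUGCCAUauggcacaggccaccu
rno-mir-7a-2: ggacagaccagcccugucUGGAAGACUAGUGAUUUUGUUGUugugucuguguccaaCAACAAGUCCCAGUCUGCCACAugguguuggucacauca
rno-mir-7b: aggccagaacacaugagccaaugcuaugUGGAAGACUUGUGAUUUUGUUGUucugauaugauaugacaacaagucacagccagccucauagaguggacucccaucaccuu
In GRCr8, rno-mir-7a-1 lies on chromosome 17 within the span of Hnrnpk, which codes for an RNA-binding protein. rno-mir-7a-2 lies on chromosome 1 within the span of a long non-coding RNA gene, LOC120099863. rno-mir-7b lies on chromosome 9 within the span of a pseudogene, Rpl35l3. Only the spans were compared, without the strand of these genes or their exons. Both miR-7a hairpins hold the same 5p strand and the same base after it, so the 5p reads of up to 24 bases do not tell the miR-7a genes apart, whereas the 3p strands differ. In the table rno-mir-7b has no 3p strand.

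The libraries held 3428930 to 11383055 miRNA reads, with a median of 4983188 in GH males, 7290553 in SI males, 5276646 in GH females and 6998674 in SI females. The family made up between 3.50% and 8.15% of them, with a median of 6.16%. SI female 16 and SI male 17 stood apart from the other libraries. The median Pearson correlation of their log2 normalized counts of all miRNAs tested with the other 19 libraries was 0.859 and 0.884, against at least 0.901 in the rest. Values of the guides without them are given with the comparisons of housing.

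The family was dominated by miR-7a-5p, the main guide strand. It was the fifth most abundant of the 617 miRNAs, with a mean of 49659 CPM (the count scaled to the same total of miRNA reads in every library), between let-7a-5p (54755 CPM) and let-7f-5p (48534 CPM). Its range over the libraries, 25882 to 64968 CPM, overlapped the ranges of both neighbours. miR-7b was 23rd with a mean of 10584 CPM, and its range of 6958 to 16151 CPM overlapped those of its neighbours miR-30a-5p and miR-143-3p as well. miR-7a-2-3p followed at rank 144 with 383 CPM and miR-7a-1-3p at rank 317 with 20.02 CPM. The order of the 4 was the same in every library. miR-7a-5p exceeded miR-7b between 2.94-fold and 5.66-fold (median 4.94), miR-7a-2-3p between 67.9-fold and 209-fold (median 143), and miR-7a-1-3p between 925-fold and 7825-fold (median 2811). miR-7a-2-3p exceeded miR-7a-1-3p between 7.24-fold and 75.3-fold (median 20.4). Reads of different sequences are ligated and amplified with unlike efficiency, so these are ratios of reads and not of molecules.

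rno-miR-7a-5p took 4.71% of the miRNA reads in GH male 16, 5.10% in 19, 5.60% in 18, 5.21% in 20 and 6.13% in 21. The SI males had 6.03% in 15, 5.82% in 19, 6.50% in 22, 3.55% in 17 and 4.34% in 20. The SI males thus lay on both sides of the GH males, with SI male 17 the lowest of all males. Among GH females, it was 4.74% in 15, 5.78% in 12, 5.12% in 16, 3.85% in 13 and 5.005% in 17. Among SI females, it was 5.34% in 14, 5.59% in 10, 4.14% in 17, 4.18% in 12 and 2.59% in 16. SI female 16 was the lowest of the 20 rats, and the female groups overlapped.

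rno-miR-7b, which differs from miR-7a-5p by the single base shown above, took 0.861% of the miRNA reads in GH male 16, 1.06% in 19, 1.06% in 18, 0.964% in 20 and 1.21% in 21. The SI males had 1.495% in 15, 1.23% in 19, 1.62% in 22, 1.02% in 17 and 1.19% in 20. Of the SI males, 15, 19 and 22 were above all GH males on this scale. In GH females, miR-7b took 0.868% in 15, 1.02% in 12, 0.959% in 16, 0.696% in 13 and 0.961% in 17. In SI females, it took 1.196% in 14, 1.04% in 10, 0.901% in 17, 0.939% in 12 and 0.879% in 16. SI females 14 and 10 were above all GH females, and the others lay among them.

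**Figure D1:**
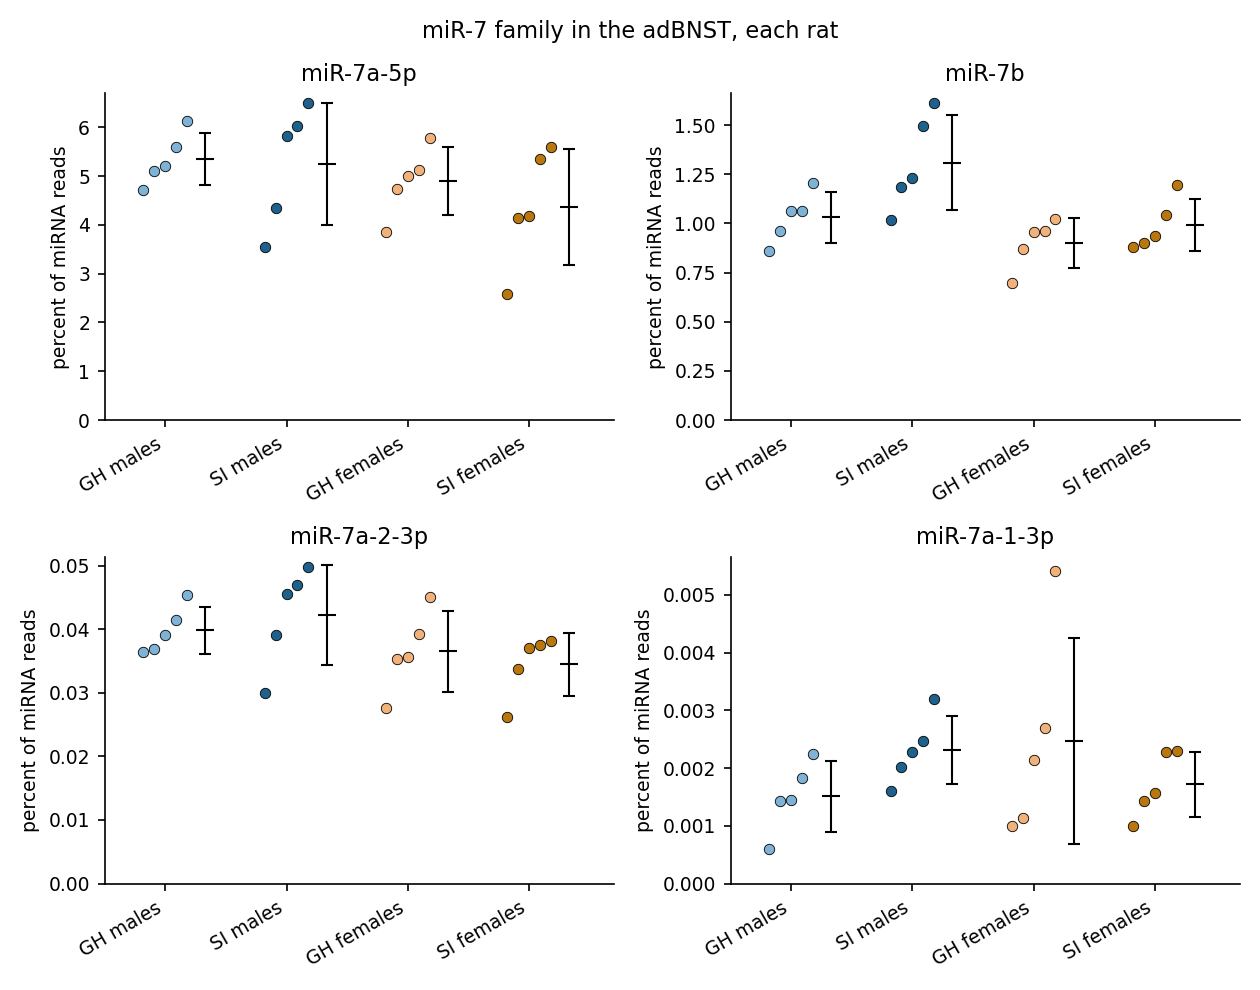
Share of each miR-7 strand in the miRNA reads of a library (percent, y axis, starting at 0 with its own scale in each panel) for the 5 rats of each group, with the mean and SD as a bar beside the points. miR-7b reaches 1.62% in SI males against at most 1.21% in GH males, while the groups overlap in every panel.

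Whether isolation changed the level of these strands was asked within each sex, with counts normalized by the TMM method and edgeR's quasi-likelihood test over the 500 miRNAs. miR-7b was 0.49 ± 0.16 (SE) higher on the log2 scale in SI males (1.41-fold, 95% interval of the log2 change 0.18 to 0.81) and 0.37 ± 0.16 higher in SI females (1.29-fold, interval 0.05 to 0.68), with n = 5 rats a group. With edgeR, the adjusted p was 0.083 in males and 0.19 in females, and the unadjusted p was 0.0054 and 0.032. Neither passed the threshold of 0.05, and none of the 4 strands did in either sex. With this threshold 4% of the 500 miRNAs were called in males and 0.4% in females (1.4% and 0% with SI higher), and at an unadjusted p under 0.05, which miR-7b met in both sexes, it was 23% and 20.8%. In bulk tissue, a change in RNA per cell and a change in the number of cells that hold it cannot be told apart.

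The call on miR-7b depended on the tool and the model. The paper, which also used DESeq2, lists miR-7b as higher in SI males but not among the miRNAs changed in both sexes. DESeq2's Wald test, fitted here to the 4 groups, put miR-7b past the threshold in both sexes (adjusted p = 0.011 in males and 0.040 in females). It called 14.4% of the miRNAs it tested in males and 17.9% in females. The log2 fold change of miR-7b ranged from 0.34 to 0.59 over the 34 alternatives for males, and from 0.14 to 0.43 over the 34 for females. It was positive in each. The lowest of these values came from scaling by total counts. Without SI male 17 the male value was 0.59, and without SI female 16, which shares the model and the scaling, it was 0.45, and both passed the threshold (edgeR, adjusted p = 0.040 and 0.049). Without SI female 16 the female value was 0.40 (edgeR, adjusted p = 0.20). Scaling moved all miRNAs. The median log2 fold change of the 500 miRNAs was -0.01 in males and -0.13 in females with TMM, and -0.16 and -0.36 with total counts.

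On the log2 scale of normalized counts, miR-7b was between 15.74 and 16.19 in GH males and between 15.98 and 16.71 in SI males, with 4 of the 5 SI males above every GH male. SI male 17 was the exception. Without overlap and with SI higher there were 4.6% of the miRNAs tested in males. In females, the range was 15.49 to 15.90 in GH and 15.97 to 16.24 in SI, so that every SI female was above every GH female. Such a gap between the groups was found for 2% of the miRNAs tested in females, and for 0.4% with SI higher. The female gap rests on the TMM factors, because the shares of all miRNA reads given above overlapped.

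The changes of the other strands were all within 2 SE. miR-7a-5p was 0.12 ± 0.19 higher in SI males and 0.04 ± 0.19 higher in SI females (edgeR, adjusted p = 0.82 and 0.90), and with total counts the sign turned in both sexes (-0.03 and -0.17). The 95% interval of this change was -0.25 to 0.49 in SI males and -0.33 to 0.41 in SI females. Without SI male 17 the male change was 0.25, and without SI female 16 the female change was 0.19 (edgeR, adjusted p = 0.48 and 0.66). miR-7a-2-3p, the 3p strand of rno-mir-7a-2, differed by 0.22 ± 0.20 in males and 0.14 ± 0.20 in females (edgeR, adjusted p = 0.58 and 0.73), and in females the sign turned with total counts (-0.08). miR-7a-1-3p, the 3p strand of rno-mir-7a-1, differed by 0.78 ± 0.47 in males and -0.21 ± 0.47 in females (edgeR, adjusted p = 0.34 and 0.83).

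**Figure D2:**
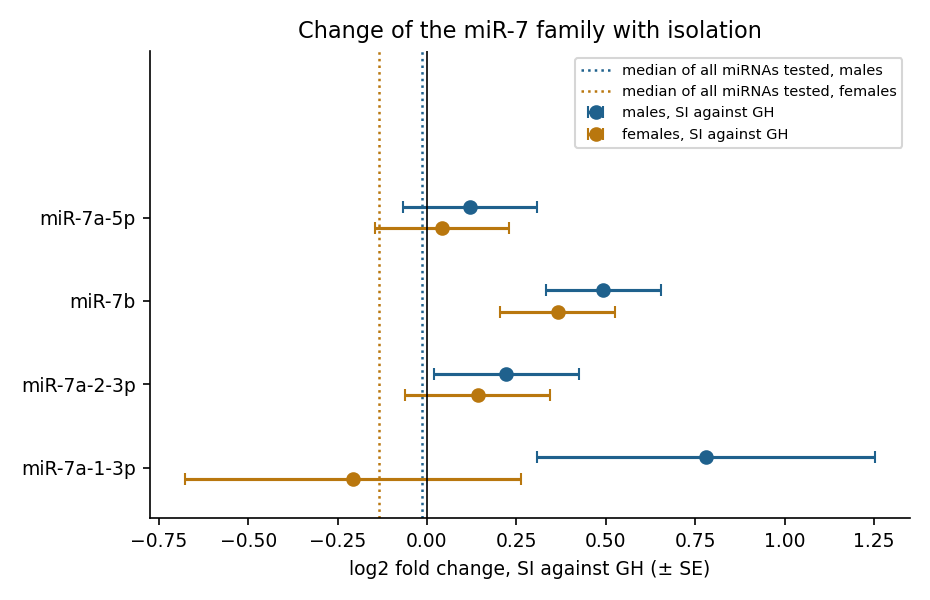
Log2 fold change of each strand in SI against GH rats (x axis, points, with SE as bars; edgeR, 5 rats a group) in males and females, with the median of the 500 miRNAs tested as dotted lines. Both miR-7b points lie to the right of 0 by more than 2 SE, and those of miR-7a-5p lie within 1 SE of it.

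No strand passed the test of the interaction of housing and sex. The log2 difference between the female and the male effect was -0.13 ± 0.23 for miR-7b, -0.08 ± 0.27 for miR-7a-5p, -0.08 ± 0.29 for miR-7a-2-3p and -0.99 ± 0.67 for miR-7a-1-3p (edgeR, adjusted p = 0.95, 0.96, 0.96 and 0.81), while 0.4% of all miRNAs passed and 7.2% had an unadjusted p under 0.05. Between females and males of the GH group no strand and none of the 500 miRNAs passed with edgeR (12 of the 500 at an unadjusted p under 0.05, and 0.853% of those tested passed with DESeq2). GH females minus GH males was -0.26 ± 0.16 for miR-7b on the log2 scale (edgeR, adjusted p = 0.996). In the SI group the difference was -0.39 ± 0.16 (adjusted p = 0.39 and unadjusted p = 0.024 with edgeR), again with none of the 500 miRNAs past the threshold (50 at an unadjusted p under 0.05, and 0.853% with DESeq2).

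The balance of the sister guides was compared next, since a ratio within a library does not depend on how the library is scaled. Of the reads of miR-7a-5p and miR-7b together, miR-7b made up 15.5% in GH male 16, 17.2% in 19, 15.97% in 18, 15.6% in 20 and 16.5% in 21. The SI males had 19.9% in 15, 17.5% in 19, 19.9% in 22, 22.3% in 17 and 21.5% in 20. All 5 SI males were above all 5 GH males. For comparison, the normalized counts of 13.8% of the 500 miRNAs tested did not overlap between these groups in either direction. Ratios of other miRNAs were not computed, so how often a ratio separates the groups is not known. The mean was 16.1% ± 0.719 (SD) in GH males and 20.2% ± 1.84 in SI males, with n = 5 in each group. As a log2 ratio of miR-7a-5p to miR-7b, it was 2.38 ± 0.08 in GH males and 1.99 ± 0.17 in SI males, a difference of -0.39 (exact permutation test, two-sided, p = 0.0079, which is the smallest that 5 against 5 can give; adjusted p = 0.048 over the 6 tests of ratios).

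In females the groups overlapped in this share. miR-7b made up 15.5% of both guides in GH female 15, 15.01% in 12, 15.8% in 16, 15.3% in 13 and 16.1% in 17. It made up 18.3% in SI female 14, 15.7% in 10, 17.9% in 17, 18.35% in 12 and 25.4% in 16. SI female 10 lay among the GH females and the other 4 were above all of them. The log2 ratio was 2.44 ± 0.05 in GH females and 2.10 ± 0.32 in SI females, a difference of -0.35 (exact permutation test, two-sided, p = 0.024, adjusted p = 0.071 over the 6 tests), so it did not pass after adjustment. Whether the ratio differed more in males than in females was not tested.

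**Figure D3:**
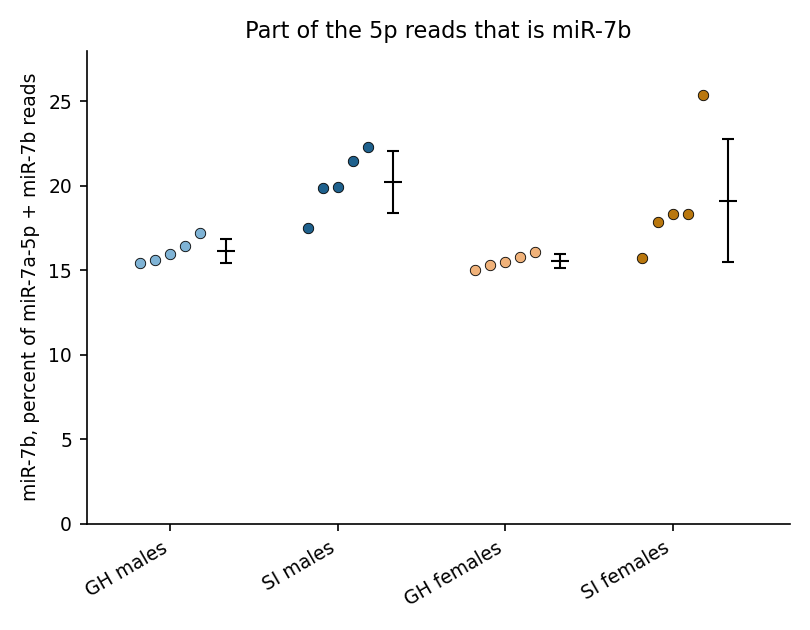
Part of the miR-7a-5p and miR-7b reads that is miR-7b (percent, y axis from 0) for each rat, with the mean and SD of each group as a bar. The GH rats lie between 15.01% and 17.2%, the SI males between 17.5% and 22.3%, and the SI females between 15.7% and 25.4%.

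The highest shares of miR-7b came from the libraries that stood apart. Without SI male 17 the log2 difference in males was -0.35 (exact permutation test, p = 0.0079), and without SI female 16 that in females was -0.21 (exact permutation test, p = 0.024), which is smaller by over 1.5 times. On the log2 scale of normalized counts miR-7a-5p was 17.78 in SI male 17 and 17.60 in SI female 16, against 18.14 to 18.72 in the other SI rats. miR-7b was 15.98 in SI male 17, the lowest of the SI males (the others 16.32 to 16.71), and 16.04 in SI female 16, among the other SI females (15.97 to 16.24). With the sexes of the SI rats numbered 17 exchanged, the difference was -0.31 in males and -0.43 in females, with the same p.

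**Figure D4:**
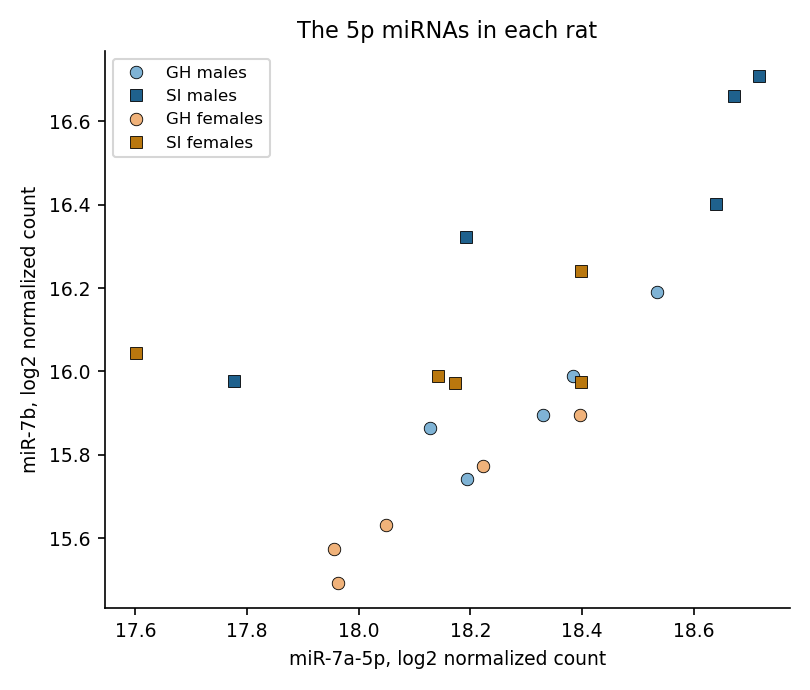
Log2 normalized counts of miR-7a-5p (x axis) and miR-7b (y axis) in each of the 20 rats, by group. SI female 16 and SI male 17 lie at the far left with miR-7a-5p at 17.60 and 17.78, and SI female 10 lies among the GH rats.

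Markers of other cells differed between the libraries as well. The summed level of 5 miRNAs of blood cells (miR-451-5p, miR-144-3p, miR-144-5p, miR-486 and miR-223-3p) was 1054 to 1407 CPM in GH males and 1361 to 3151 CPM in SI males, and 970 to 1450 CPM in GH females and 1399 to 3360 CPM in SI females. It was highest in SI female 16 (3360 CPM) and SI male 17 (3151 CPM), which also had the highest part of miR-7b. Nearly all of it was miR-486 (mean 1595 CPM), and in SI female 16 the other 4 were at 0. The red cell miRNA miR-451-5p averaged 8.64 CPM and was at 0 in 4 libraries, and miR-144-3p was at 0 in 11. Neuron markers (miR-124-3p, miR-124-5p, miR-128-3p, miR-9a-5p and miR-137-3p) summed to 121595 to 178917 CPM in GH males and 109720 to 153071 CPM in SI males, and to 108666 to 148128 CPM in GH females and 68533 to 172627 CPM in SI females, lowest in SI female 16. SI libraries were also deeper on the median, as given above. The part of blood, neurons or depth in the ratio was not tested.

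The remaining marker lists were described in the same way. Markers of choroid plexus (miR-204-5p and miR-211-5p) reached 16856 CPM in SI male 20, against at most 6580 CPM in the other 19 libraries. Those of oligodendrocytes summed to 2553 to 5015 CPM in GH males, 3309 to 5888 CPM in SI males, 2758 to 5863 CPM in GH females and 2293 to 5686 CPM in SI females. Their median log2 fold change was -1.18 in males and -2.30 in females, in each sex the value of miR-338-3p. This strand averaged 75.9 CPM and was at 0 in 1 library. In females 2 of 3 markers had an unadjusted p under 0.05 (edgeR, none in males). However, miR-219a-2-3p, which made up most of the sum, differed by 0.45 in males and 0.15 in females. The paper lists miR-338-5p, the other strand of the miR-338 hairpin, as higher in SI rats of both sexes. That strand was not among the oligodendrocyte markers counted here. Those of microglia and other immune cells summed to 12.8 to 40.2 CPM in GH males, 5.90 to 27.2 CPM in SI males, 10.2 to 61.7 CPM in GH females and 0 to 17.6 CPM in SI females, at 0 in SI female 16, with a median log2 fold change of -0.07 in males and -1.66 in females. The part of these cells in the miR-7 values was not tested. Of the markers of pituitary and epithelial endocrine cells only miR-375-3p, known from pancreatic islets and pituitary, was abundant (mean 3451 CPM, range 1822 to 6155), while miR-200c-3p and miR-200b-3p averaged 8.27 and 4.42 CPM and miR-200a-3p, miR-141-3p and miR-429 averaged 0.367, 0.136 and 0.114 CPM. Of the 6 marker lists, miR-200a-3p, miR-141-3p and miR-429 did not pass the filter on low counts and were not tested. No member that was tested passed the threshold in either sex with edgeR, where 4% of all miRNAs did in males and 0.4% in females. miR-486 was 0.85 ± 0.27 higher on the log2 scale in SI males and 0.99 ± 0.27 higher in SI females (edgeR, adjusted p = 0.071 and 0.084). The median log2 fold change of the blood list was 0.76 in males and -0.54 in females. miR-204-5p differed by log2 1.85 ± 0.69 in males and -0.48 ± 0.67 in females (edgeR, adjusted p = 0.11 and 0.73).

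The ratios of the 3p strands to miR-7a-5p, whose reads come from both miR-7a hairpins together, did not pass a test in either sex. The log2 ratio of miR-7a-2-3p to miR-7a-5p was -7.07 ± 0.22 in GH males and -6.94 ± 0.45 in SI males (exact permutation test, two-sided, p = 0.65), and -7.07 ± 0.40 in GH females and -6.95 ± 0.53 in SI females (exact permutation test, p = 0.70). That of miR-7a-1-3p to miR-7a-5p was -11.91 ± 0.65 and -11.15 ± 0.68 in males (exact permutation test, p = 0.13) and -11.22 ± 0.89 and -11.33 ± 0.80 in females (exact permutation test, p = 0.86). The adjusted p of these 4 tests lay between 0.25 and 0.86.

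rno-miR-7a-1-3p had few reads, and its values are accordingly loose. In GH males it had 30 reads in 16, 77 in 19, 53 in 18, 119 in 20 and 145 in 21, and in SI males 230 in 15, 187 in 19, 75 in 22, 180 in 17 and 226 in 20. On the log2 scale of normalized counts, 4 of the 5 SI males were above every GH male. In GH females it had 93 reads in 15, 115 in 12, 138 in 16, 53 in 13 and 195 in 17, and in SI females 70 in 14, 146 in 10, 111 in 17, 113 in 12 and 144 in 16. Sequences read once in a library are left out of the lists, which bears most on a strand at this level. miR-7a-2-3p had between 1341 and 4443 reads in a library.

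The reads of each strand were next compared with its reference sequence. miR-7a-5p was read in 786 distinct sequences over the 20 libraries, miR-7b in 396, miR-7a-2-3p in 87 and miR-7a-1-3p in 24. The forms that carry most of the guide reads are shown because the guides, with the same seed, differ in their 3′ end.
miR-7a-5p, 24 bases: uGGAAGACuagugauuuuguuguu
miR-7a-5p, 23 bases, reference: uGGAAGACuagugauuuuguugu
miR-7b, 23 bases, reference: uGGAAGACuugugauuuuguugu
miR-7b, 24 bases: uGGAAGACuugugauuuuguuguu
The 24-base form ends in a U that is also the next base of the hairpins. A U added to the reference would give the same read, so the source of this base cannot be told. The 24-base form had the highest mean share of miR-7a-5p, 43.6% (39.5% to 46.9% over the libraries). The reference had 42.0% (39.1% to 44.4%). The 24-base form exceeded the reference in 15 of 20 libraries, and the reference was higher in the other 5. The reference was the most frequent read of miR-7b in 20 of 20 libraries, with a mean share of 51.7% (47.1% to 56.5%).

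For the reference and the 3′ end, the guides differed in the same direction in every library. The reference share was higher in miR-7b than in miR-7a-5p in 20 of 20 libraries. Reads longer at the 3′ end were the larger part of miR-7a-5p (46.3% ± 2.03 SD, against 38.7% ± 2.63 of miR-7b), as were reads shorter at the 3′ end (9.79% ± 0.906 against 7.30% ± 0.776), each in 20 of 20 libraries. Reads with a mismatch were 2.47% ± 0.230 of miR-7b and 1.99% ± 0.133 of miR-7a-5p, but this order rested on reads that carry both names and are counted for each guide. Without these reads the shares were 1.81% ± 0.177 and 1.85% ± 0.124, with miR-7a-5p higher in 14 of 20 libraries, while the orders of the other classes were the same. Added nucleotides (1.97% ± 0.163 of miR-7a-5p and 1.996% ± 0.259 of miR-7b) and differences at the 5′ end (1.63% ± 0.161 and 1.601% ± 0.242) had no such order, with miR-7a-5p higher in 8 and in 12 of the 20 libraries. These shares are descriptions of the 20 libraries and were not tested against each other.

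**Figure D5:**
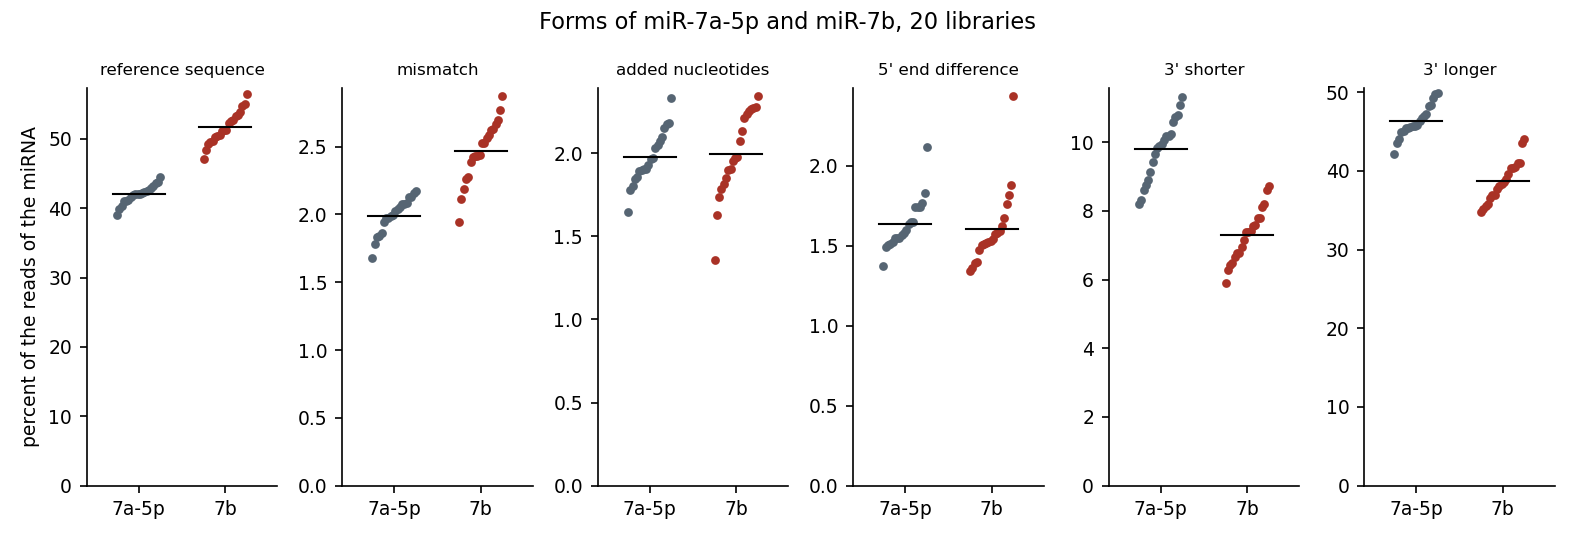
Share of the reads of miR-7a-5p and of miR-7b (percent, y axis from 0 in each panel) that have the reference sequence, a mismatch, added nucleotides, a 5′ end difference, or a shorter or longer 3′ end, for the 20 libraries sorted by value, with the mean as a line. Reads that carry both names are included, and the order in the mismatch panel rests on them. In the panels of the reference sequence and the longer 3′ end the mean of miR-7b is 51.7% and 38.7%, against 42.0% and 46.3% for miR-7a-5p.

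Some reads of 25 bases had a last base that none of the hairpins has at that place. After the 24-base form the next base is U in rno-mir-7a-1, G in rno-mir-7a-2 and C in rno-mir-7b. Reads of 25 bases ending in A were 0.545% of miR-7a-5p (0.411% to 0.678% over the libraries) and 0.597% of miR-7b (0.191% to 0.894%), above those ending in U for either guide (0.260% and 0.312%). Reads ending in G were 0.071% of miR-7a-5p and those ending in C 0.027% of miR-7b.

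The 5′ end, which sets the seed, was at its annotated base in nearly all reads of both guides. Of the reads, 98.4% of both miR-7a-5p and miR-7b began at the annotated base, and 1.32% and 1.29% began 1 base later, which shifts the seed to GAAGACU. miR-7a-2-3p began at its annotated base in 95.2% of its reads and 1 base later in 4.38%, and its reference sequence made up a mean of 78.9% of its reads.

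miR-7a-1-3p did not follow its annotation. None of its 2500 reads had the reference sequence, and 2 reads in 1 library began at the annotated base. In all 20 libraries reads began 1 base later, in 77.7% of all reads, and 17.3% began 2 bases later. The most frequent read is shown because its seed, in capitals, is not the annotated CAACAAA.
miR-7a-1-3p, most frequent read: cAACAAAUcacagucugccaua
Its seed AACAAAU is that of no mature rat miRNA in the table. It lines up with miR-7a-2-3p over 22 bases, from which it differs at 3 positions (A7G, A10C and U21C, from miR-7a-1-3p to miR-7a-2-3p, counted from the 5′ end of both), of which position 7 lies in the seed.

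Because the guides differ at a single base, an error in reading it would turn a read of the one into a read of the other. In miR-7a-5p, at the 4 other positions with A, reads with U in its place made up at most 0.0207% of the miR-7a-5p reads, which would come to 0.0956% of the miR-7b reads. The reverse would come to 0.0055% of the miR-7a-5p reads. Reads that the aligner gave to both guides numbered 9213, or 0.143% of miR-7a-5p and 0.663% of miR-7b, and were counted for each. Among single mismatches in miR-7a-5p the most frequent were A5G with 0.270% of reads (0.234% to 0.309% over the libraries), A7G with 0.161% and A10G with 0.118%. The reads with G at position 10, the base that separates the guides, were counted for miR-7b as well (0.548% of its reads). They cannot be given to either guide.

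Housing was compared for these forms as well, as an isomiR, which is a sequence class of a miRNA given by its mismatch, addition and ends. Of 10290 isomiRs tested, 291 belonged to the family (192 to miR-7a-5p, 85 to miR-7b, 9 to miR-7a-2-3p and 5 to miR-7a-1-3p). None of the 291 passed with edgeR in males or in females, where 0.00972% and 0% of all isomiRs did. At an unadjusted p under 0.05 there were 11 in males and 8 in females, a share of 3.78% and 2.75%, against 9.12% and 9.23% of all isomiRs. The reference form of miR-7b was 0.37 ± 0.17 higher in SI males and 0.19 ± 0.17 higher in SI females on the log2 scale, and its 24-base form 0.31 ± 0.16 and 0.09 ± 0.16 higher (edgeR, adjusted p between 0.50 and 0.99). For miR-7a-5p the reference form differed by -0.05 ± 0.21 and -0.12 ± 0.21 and the 24-base form by 0.02 ± 0.21 and -0.20 ± 0.21 (edgeR, adjusted p between 0.96 and 0.998). These values rest on the scaling of the isomiR table, and with the factors of the miRNA table they were higher. The reference form of miR-7b was then 0.53 in males and 0.43 in females (edgeR, unadjusted p = 0.0017 and 0.0076, adjusted p = 0.23 and 0.29), its 24-base form 0.47 and 0.31 (edgeR, unadjusted p = 0.0044 and 0.047, adjusted p = 0.27 and 0.49), and the reference form of miR-7a-5p turned positive in both sexes (0.11 and 0.09).

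The shares of the 6 classes of form were compared in 24 tests, for both guides and both sexes. None passed after adjustment, the lowest adjusted p being 0.38, and 3 had an unadjusted p under 0.05. Reads with a mismatch were 2.71% ± 0.122 of miR-7b in GH females and 2.40% ± 0.174 in SI females (exact permutation test, p = 0.016), with 4 of the 5 SI females below all GH females. Without the reads that carry both names these shares were 1.92% ± 0.127 and 1.76% ± 0.247 (exact permutation test, p = 0.24). Reads shorter at the 3′ end were 10.4% ± 0.505 of miR-7a-5p in GH males and 9.04% ± 0.747 in SI males (exact permutation test, p = 0.032, above 0.05 in 2 of 13 alternatives), with 4 of the 5 SI males below all GH males. Reads with a 5′ end difference were 1.54% ± 0.061 of miR-7a-5p in GH females and 1.75% ± 0.223 in SI females (exact permutation test, p = 0.048), and this p was above 0.05 in 10 of 13 alternatives.

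The other miRNAs of the miR-7 network and of neuroendocrine and neuronal cells were counted as a list of 16 names, of which 12 were tested. None passed in either sex with edgeR (2 at an unadjusted p under 0.05 in each sex, where 23% and 20.8% of all miRNAs did). Their median log2 fold change was -0.16 in males and -0.05 in females, beside -0.01 and -0.13 over all miRNAs tested. The entry rno-miR-671, listed for the link of miR-671 to Cdr1as, was 0.84 ± 0.29 higher on the log2 scale in SI males. In SI females it was 0.53 ± 0.29 higher (edgeR, adjusted p = 0.088 in males and 0.30 in females, mean level 102 CPM). Its name gives no arm, and whether it is the strand that directs the cutting of Cdr1as was not checked. miR-375-3p was 0.19 ± 0.27 and 0.15 ± 0.27 higher (edgeR, adjusted p = 0.81 and 0.78). miR-132-5p, from a hairpin that neuronal activity is known to induce, differed by log2 -0.51 ± 0.25 in SI males and -0.81 ± 0.25 in SI females (edgeR, adjusted p = 0.22 and 0.084). The other strand of that hairpin, miR-132-3p, was more abundant (mean 5928 CPM against 411). It differed by -0.30 ± 0.22 and -0.09 ± 0.22 (edgeR, adjusted p = 0.46 and 0.84). On the same list, miR-212-3p differed by -0.31 and -0.57 and miR-212-5p by -0.01 and -0.01. The 5 neuron markers had a median log2 fold change of 0.05 in males, with 1 at an unadjusted p under 0.05, and of -0.13 in females, with none. That marker was miR-124-3p, which differed by log2 -0.62 ± 0.24 in males and -0.19 ± 0.24 in females (edgeR, adjusted p = 0.12 and 0.70), while miR-128-3p differed by 0.13 and 0.33 and miR-9a-5p by 0.05 and 0.14.

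Over the 20 libraries, the log2 normalized counts of the guides went together in part, with a Pearson correlation of 0.65 between miR-7a-5p and miR-7b. Those of the 3p strands correlated with miR-7a-5p by 0.09 (miR-7a-2-3p) and -0.18 (miR-7a-1-3p). The spread of the guides was small, with an SD of 0.29 for miR-7a-5p and 0.33 for miR-7b, the 24th and 36th lowest of the 500 miRNAs. It was not particular to the guides, since miR-7a-2-3p had an SD of 0.28, the 19th lowest. For miR-7a-1-3p the SD was 0.65, at rank 199. The miRNAs most like miR-7b in pattern were let-7g-5p (r = 0.83), miR-1839-5p (0.76), miR-329-5p (0.69), miR-25-3p (0.69) and miR-221-3p (0.68). Those most like miR-7a-5p were miR-9a-5p (r = 0.81), miR-1843b-5p (0.72), miR-379-3p (0.72), miR-26a-5p (0.71) and miR-369-3p (0.70). These are correlations over 20 libraries of 4 groups that share their scaling factors, and they are given as descriptions only.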

How the data were processed

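Small RNA of adBNST punches of 20 rats was sequenced (input 215 ng, PCR of 22 cycles). The authors trimmed adapters with cutadapt and aligned reads to the rat entries of miRBase v21 with seqbuster. Per library they deposited raw counts, 1 per distinct read sequence, and its miRNA, mismatches, additions and end differences. Sequences with fewer than 2 reads are not listed. Versions of these tools are not given in the sources used here.

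Here counts were summed by miRNA, with reads that match several counted for each, and by isomiR. Features with at least 10 counts in at least 5 libraries were tested in 1 model of the 4 groups (edgeR 4.0.16, TMM, quasi-likelihood, R 4.3.3), with Benjamini-Hochberg adjustment over all features tested. The SE was derived from the F statistic of each fold change, and 95% intervals are 1.96 SE to each side. Log2 normalized counts have a pseudocount of 1. Ratios and shares were compared by exact permutation over 252 assignments (Python 3.11.15, numpy 2.4.6). DESeq2 1.42.0, limma 3.58.1 voom, other scalings and filters, rats left out, and the SI rats numbered 17 exchanged or left out were alternatives. Scripts were tested on simulated data. Leaving out both rats numbered 17 for the ratio, the replicate block for isomiRs, and shares and the ratio from reads that carry a single miRNA name, were chosen after seeing the data. The members and lists were chosen with earlier results of these data known. Named forms are up to 5 isomiRs of each strand by mean CPM, and named miRNAs are the fixed lists, the neighbours in level and the 5 most alike in pattern.

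Nothing states pooling, so each rat was taken as a replicate. The labels do not give cage or litter, and GH rats that shared either would not be fully independent. No library was a copy of another (lowest chi-square per degree of freedom 84.9 over 190 pairs). Reads carry no molecular identifiers here.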

Additional observations from a re-analysis of the deposited data

Results flagged for a closer look

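In 76 groups of 5 rats the sample farthest from the rest was compared with Dixon's limit of 0.71, which chance passes in about 1 in 20 groups, and 5 did. The log2 normalized count of miR-7b was 16.24 in SI female 14, against 15.97 to 16.04 in the other SI females. The log2 ratio of miR-7a-2-3p to miR-7a-5p was -6.16 in SI male 17, against -7.27 to -6.95 in the other SI males, and this is a library that stood apart. Of the miR-7b reads, 1.88% had a 5′ end difference in SI female 16, against 1.39% to 1.53% in the other SI females, and 43.6% had a longer 3′ end in SI female 17, against 34.7% to 37.0%. In SI male 15, 7.80% of the miR-7b reads were shorter at the 3′ end, against 6.43% to 6.78% in the other SI males. The causes were not tested.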

How the results depend on the processing

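The log2 ratio of miR-7a-5p to miR-7b kept its direction and an unadjusted p under 0.05 in all 16 alternatives in each sex, with the difference between -0.46 and -0.31 in males and between -0.43 and -0.21 in females. Over 42 results, 995 of 1092 alternative values kept both their sign and their side of the threshold or, for counts, stayed near the main count. Sign changes were seen in 38 values of 14 results, none of them with a p under 0.05. The remaining values kept their sign but crossed the threshold, or were counts that moved further. The number of miRNAs past the threshold stayed near its main count in 20 of 34 alternatives in males and 11 of 34 in females.

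The miR-7b call in males was made with DESeq2 (0.47), limma voom with quality weights (0.54, adjusted p = 0.0074), 10 counts in every library (0.48, adjusted p = 0.037) and the males alone (0.52, adjusted p = 0.035), and in females with DESeq2 (0.38). Leaving out 1 rat gave 0.41 to 0.59 in males, past the threshold without SI male 17 (edgeR, adjusted p = 0.040) and without SI female 16 (0.45, adjusted p = 0.049). The number of miRNAs past the threshold in males, 20 with edgeR, was 52 with DESeq2, 87 with limma voom, 40 with 10 counts in every library, 89 with males alone, 11 with the SI rats numbered 17 exchanged, 13 with both left out, and 7 (without SI male 15) to 73 (without SI female 16) with 1 rat left out. In females, 2 with edgeR, it was 67, 40 with 10 counts in every library, 0 with females alone, 5 exchanged, 0 left out, 1 with reference sequences only, and 1 to 63 (without SI female 10) with 1 rat left out.

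Signs turned for small differences. Total counts gave -0.028 and -0.17 for miR-7a-5p in males and females and -0.082 for miR-7a-2-3p in females. Exchanging the rats numbered 17 gave -0.0291 for miR-7a-5p in females, 0.025 for the interaction of miR-7a-2-3p, -0.000949 for the log2 ratio of miR-7a-2-3p to miR-7a-5p in males and 0.089 for that of miR-7a-1-3p in females. With the factors of the miRNA table the reference form of miR-7a-5p was 0.11 in males and 0.089 in females. Leaving out 1 rat gave -0.036 to 0.19 for miR-7a-5p and -0.38 to 0.22 for miR-7a-1-3p in females, -0.21 to 0.11 for the interaction of miR-7a-5p and -0.16 to 0.052 for that of miR-7a-2-3p. It gave -0.071 to 0.22 in males and -0.089 to 0.22 in females for the log2 ratio of miR-7a-2-3p to miR-7a-5p, and -0.41 to 0.23 in females for that of miR-7a-1-3p. For the forms of miR-7a-5p it gave -0.067 to 0.21 (24 bases, males), -0.14 to 0.11 (reference, males) and -0.25 to 0.030 (reference, females). The cause was not tested. The number of share tests with an unadjusted p under 0.05 was 3, 5 with the rats numbered 17 exchanged, and 1 with only reads that carry a single miRNA name.

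Animal numbers occur in both housing groups for male 19 and 20 and female 12, 16 and 17. Rats with the same number did not deviate together (correlations -0.30 to 0.09). The labels do not say what a shared number means, and these few correlations cannot show that such rats have nothing else in common. A replicate block could be fitted to these rats only, and the same rats were fitted without it. With and without the block, 0 and 0 miRNAs passed in males and 0 and 46 in females. miR-7b was 0.53 and 0.53 in males and 0.32 and 0.32 in females, miR-7a-5p was -0.14 and -0.12 in females, and the interaction of miR-7a-2-3p was 0.16 and 0.15. For the forms, the values with and without the block were 0.0054 and 0.0087 for the reference of miR-7a-5p in males, -0.12 and -0.11 for that of miR-7b in females, and -0.11 and -0.0980 for the 24-base form of miR-7b in females.

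miR-7a-1-3p, with 30 to 230 reads in a library, had a 95% interval of -0.15 to 1.71 in males.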
